A study of Mus musculus with 28 samples.

Results

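Dnmt1 and Uhrf1, the genes of the enzyme and the recruitment factor of maintenance DNA methylation, were followed across 14 groups of mouse germ cells, germ cell derived cultures, embryonic stem cells and testis. The genes were found through the RefSeq accession that the array files give for each spot. Dnmt1 had 3 probes and Uhrf1 had 2, so these were 5 of the 43289 probes and 2 of the 30632 genes kept. Each group held 2 single-colour (Cy3) Agilent arrays, 28 in all. The primordial germ cells (PGC), the founder cells of eggs and sperm, were male and female, from stages named E10.5, E13.5 and E17.5 after the days post coitum, and of the strain BDF1 x TgN(deGFP)18Imeg. Spermatogonia (male) and oogonia (female) came from BDF1 x Tg(Mvh-Venus)1Rbrc, with no age in the labels. The EG arrays of both sexes, a name used for pluripotent lines derived from PGC, were of Rb(X.2)2Ad X 129/Sv, and their source field names PGC of 12.5 days post coitum. The ES arrays were of 1 line per sex, the male line TMA5, a hybrid of TgN (deGFP)20Imeg and MSM/Ms, and the female line no5 of 129/Sv, so sex, line and strain cannot be told apart there. The GS arrays, a name used for cultured germline stem cells, were from DBA/2, and adult testis was the whole organ of C57BL/6J. The labels leave out where the reporter transgenes are active, how cells were sorted and whether feeder cells were present. They also do not name an animal or culture for each array, so the p-values cover array to array spread that may be partly technical.

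After replication a methylated CpG site carries its methyl group on the old strand only. UHRF1 binds such hemimethylated sites and modifies histone H3 and other proteins by ubiquitination, and DNMT1, the maintenance methyltransferase, is brought to the site and methylates the new strand. Mouse PGC lose most of their DNA methylation while they migrate to and settle in the gonad, male germ cells regain it before birth, and female germ cells regain it only in growing oocytes after birth. Mouse oocytes are known to use an upstream first exon of Dnmt1 that gives a shorter protein.

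Dnmt1 lies on the minus strand of chromosome 9 (20907206 to 20959888, GRCm38.p6) and Uhrf1 on the plus strand of chromosome 17 (56303337 to 56323486). RefSeq lists 3 starts for Dnmt1 and 2 for Uhrf1, and 3 of these promoters are shown because the starts of Dnmt1 differ sharply in base composition and 1 start of each gene holds a motif of E2F factors, the activators of S phase genes. Each runs 5′ to 3′ on the strand of the gene, from 250 bases before to 50 after the start, and capitals mark matches to the octamers TTTCCCGC, TTTCGCGC, TTTGCCGC and TTTGGCGC on either strand. The motif was chosen after the sequences were seen. The first is the upstream Dnmt1 start (chr9:20959839-20960138), the second the CpG-rich Dnmt1 start (chr9:20952574-20952873) and the third the CpG-rich Uhrf1 start (chr17:56304063-56304362), all from RefSeq on GRCm38.p6.
Dnmt1 upstream start: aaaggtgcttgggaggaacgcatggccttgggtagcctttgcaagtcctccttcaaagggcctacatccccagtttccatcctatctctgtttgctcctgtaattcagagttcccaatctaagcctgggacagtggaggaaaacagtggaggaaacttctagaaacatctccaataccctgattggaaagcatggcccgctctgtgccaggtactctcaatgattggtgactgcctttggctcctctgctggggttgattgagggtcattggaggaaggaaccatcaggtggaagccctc
Dnmt1 CpG-rich start: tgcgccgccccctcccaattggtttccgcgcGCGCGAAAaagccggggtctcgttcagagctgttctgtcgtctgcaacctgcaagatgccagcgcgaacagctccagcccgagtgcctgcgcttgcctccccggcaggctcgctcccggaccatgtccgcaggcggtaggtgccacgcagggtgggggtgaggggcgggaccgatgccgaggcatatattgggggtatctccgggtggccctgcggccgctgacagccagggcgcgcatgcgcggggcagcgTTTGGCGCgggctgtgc
Uhrf1 CpG-rich start: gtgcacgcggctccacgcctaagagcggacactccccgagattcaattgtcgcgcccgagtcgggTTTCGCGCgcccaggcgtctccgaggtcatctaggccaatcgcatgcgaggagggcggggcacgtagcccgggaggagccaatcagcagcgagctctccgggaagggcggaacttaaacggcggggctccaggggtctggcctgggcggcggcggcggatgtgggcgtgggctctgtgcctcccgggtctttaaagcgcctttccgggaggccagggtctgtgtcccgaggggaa
The upstream Dnmt1 promoter held 2 CpG sites and no match. The CpG-rich Dnmt1 promoter held 33 CpG sites, more than 91.4% of 32851 promoters of the same length, and 2 matches. The CpG-rich Uhrf1 promoter also held 33 CpG sites, with 1 match. Such a match was found in 744 of the 32851 promoters (2.26%). The remaining start of each gene (chr9:20952930-20953229 and chr17:56303087-56303386) held 12 CpG sites and no match. The probe positions are not used here, so transcripts from these starts cannot be told apart in the values that follow.

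Signal depth differed between the groups. The share of probes well above background was 17.8% to 46.7% on the PGC arrays, 41.1% to 53.4% in spermatogonia and oogonia, 45.1% to 67.4% in EG and ES and 70.9% to 76.7% in GS and testis. The replicate 1 arrays of E10.5 PGC stood apart with 17.8% (male) and 24.5% (female), against 40.3% and 40.7% for replicate 2, and the results of both genes against E10.5 are also given without them. All PGC replicate 1 arrays were scanned on 1 day and all replicate 2 arrays on another. Spermatogonia and oogonia, and EG and ES, each lay on a slide of their own, so slide and group cannot be told apart in comparisons with them. GS and testis shared a slide. Strain also differed when GS was compared with testis or spermatogonia, EG with PGC or ES, and spermatogonia or oogonia with PGC. Strain and group cannot be told apart in those comparisons. Ddx4 and Dazl, defining markers of germ cells, were well above background on both arrays of all 14 groups, although their summed level was lowest in EG and ES. A level is the log2 processed signal relative to the 75th percentile of the same array, so 0 is that percentile, and levels are compared only within a probe.

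The Dnmt1 probe M08A07256, the brightest of the 3, was well above background on all 28 arrays. Its group means spanned 4.02 on the log2 scale. The highest mean was in E13.5 female PGC, where the arrays read −0.27 and −0.12 (mean −0.20 ± 0.11, SD, n = 2). E13.5 male PGC followed at −0.71 ± 0.01. The lowest mean was in adult testis, with −4.24 and −4.18 (−4.21 ± 0.04), and the next lowest was in oogonia, with −2.94 and −2.90 (−2.92 ± 0.03). Testis stood 1.29 under oogonia with no overlap. ES arrays of the female line averaged −1.05 ± 0.02 and of the male line −1.79 ± 0.03, and EG averaged −2.40 ± 0.22 in male and −1.97 ± 0.05 in female arrays. Of the 13 pairs of neighbours in the order of Dnmt1 means, 7 had overlapping arrays, among them E17.5 male and E17.5 female PGC and both E10.5 groups.

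Uhrf1 was ordered differently. Its brightest probe, A_52_P314705, was well above background on 27 of the 28 arrays, the exception being replicate 1 of E10.5 male PGC. Group means spanned 4.28 on the log2 scale. The highest were in ES, with −0.17 ± 0.10 in the male line and 0.04 ± 0.12 in the female line (SD, n = 2 each), and in oogonia, where the arrays read −0.20 and −0.36 (−0.28 ± 0.11). E17.5 female PGC and EG female arrays followed at −0.71 ± 0.39 and −0.74 ± 0.01. The lowest were E10.5 female PGC, with −4.15 and −4.05 (−4.10 ± 0.07), and E10.5 male PGC, with −4.76 and −3.72 (−4.24 ± 0.73). The next lowest, E17.5 male PGC at −3.08 ± 0.30, did not overlap E10.5 female PGC. Among the 13 pairs of neighbours, 7 overlapped. Oogonia ranked 13 of 14 for Dnmt1 by each of its 3 probes. For Uhrf1 they ranked 3 of 14 by the main probe and 5 of 14 by the second. Over the 14 group means the main probes of Dnmt1 and Uhrf1 had a Pearson r of −0.24 and a Spearman rho of −0.40, a description over groups that share scaling and amplification.

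**Figure D1:**
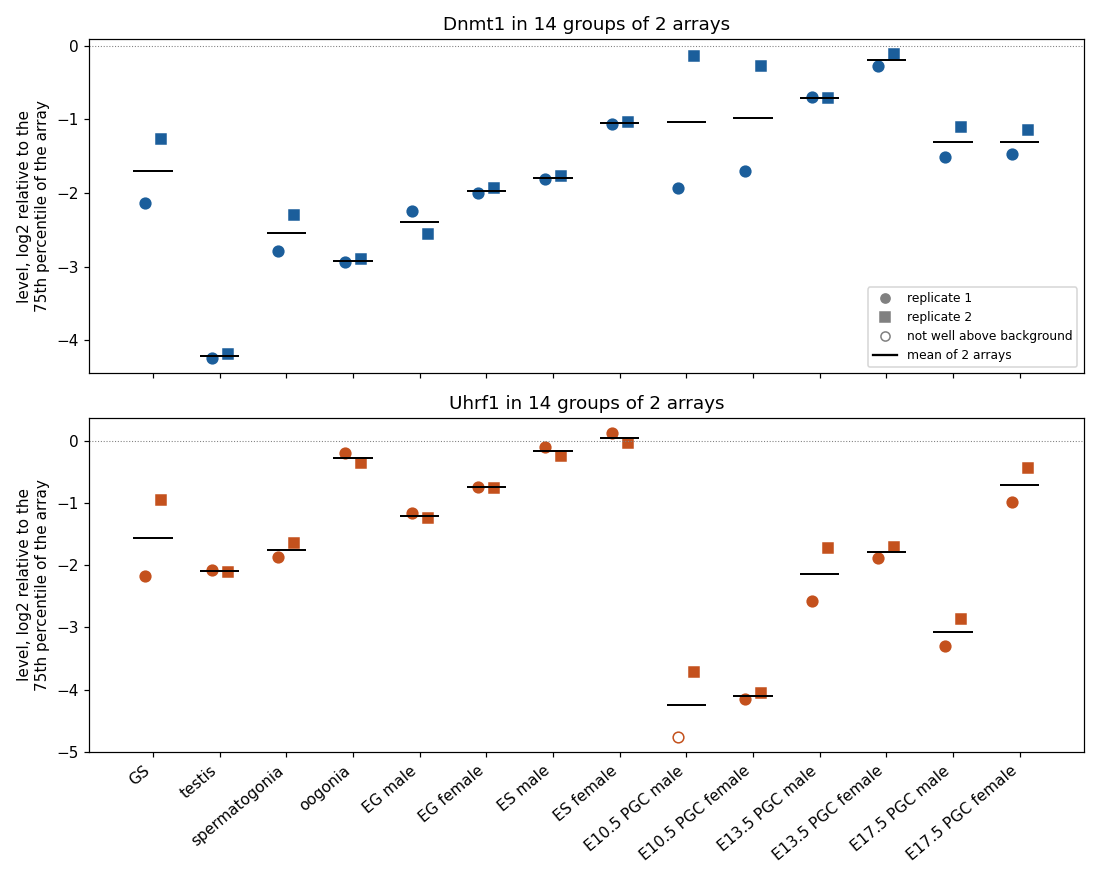
Level of Dnmt1 (top) and Uhrf1 (bottom) on each of the 28 arrays, by group. Levels are log2 relative to the 75th percentile, on that array, of the probes well above background on all 28 arrays. Circles and squares are replicates 1 and 2, bars their mean, and the open circle marks the 1 array on which Uhrf1 was not well above background. By group mean, Dnmt1 is highest in E13.5 PGC and lowest in testis, and Uhrf1 is highest in ES and oogonia and lowest in E10.5 PGC. For Dnmt1 the E10.5 replicate 2 arrays of both sexes lie above both E13.5 male arrays.

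The other probes of each gene followed the same course. The second Uhrf1 probe, A_51_P491742, was well above background on 26 arrays and had r = 0.98 with the main probe over the 14 group means. The Dnmt1 probe M08A00925 had r = 0.99 with the main probe, and M08A02535, a dimmer probe detected on 24 arrays, had r = 0.94. The Uhrf1 probes differed most in oogonia and spermatogonia. The dim Dnmt1 probe stood furthest from the others in ES female arrays, then in spermatogonia and oogonia. ES female arrays ranked 2 of 14 by that probe, against 5 by the main probe and 7 by M08A00925. For Uhrf1, oogonia stood 0.43 over E17.5 female PGC by the main probe and fell by 0.26 below them by the second, and neither difference passed the test. For Dnmt1, spermatogonia fell by 1.24 below E17.5 male PGC by the main probe (limma adjusted p = 0.0933), against −3.31 by the dim probe (adjusted p = 0.0370), which was well above background on 1 of the 2 spermatogonia arrays.

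**Figure D2:**
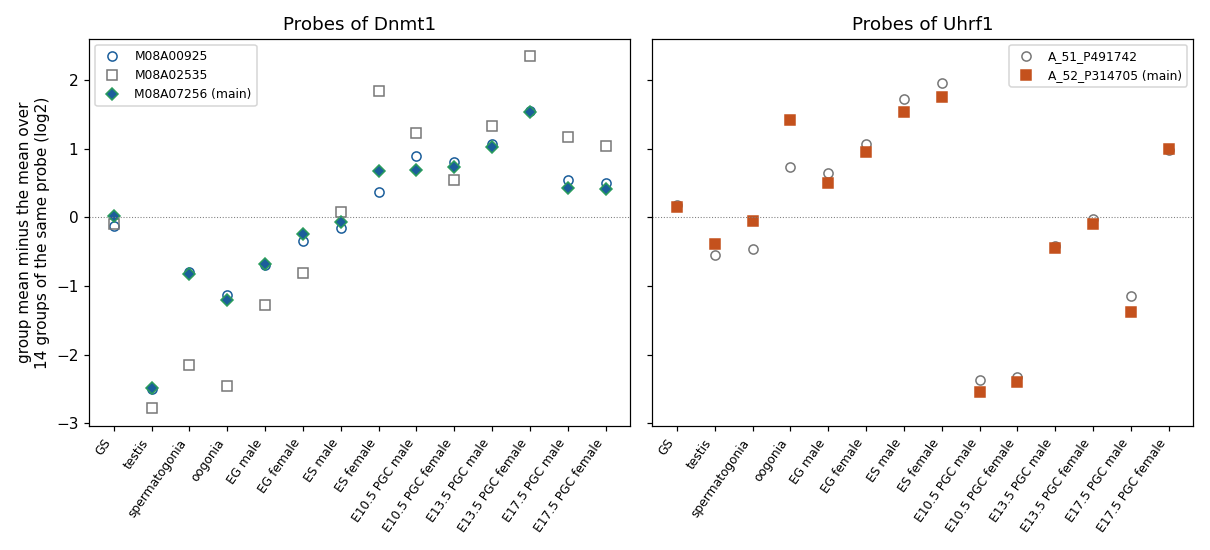
Group means of each probe minus the mean of that probe over the 14 groups (log2), for the 3 Dnmt1 probes (left) and the 2 Uhrf1 probes (right). Filled symbols are the main probes. The probes of a gene track each other. The widest gaps are in oogonia and spermatogonia for Uhrf1, and in ES female arrays, spermatogonia and oogonia for Dnmt1.

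Uhrf1 was higher at E13.5 than at E10.5 in PGC of both sexes, while no Dnmt1 change passed the test. In female PGC, Uhrf1 read −1.88 and −1.70 at E13.5, against −4.15 and −4.05 at E10.5, a 4.94-fold rise (log2 2.30 ± 0.39, SE; limma adjusted p = 4.6e-04; 95% interval 2.79 to 8.76 fold). Of 11413 genes tested there, 29.4% were called in either direction. In male PGC, Uhrf1 read −2.58 and −1.72 at E13.5, against −4.76 and −3.72 at E10.5, where the lower value was not well above background. The male rise was 4.27-fold (log2 2.09 ± 0.39; adjusted p = 0.00159), with 19.1% of 8912 genes called. The arrays of E13.5 and E10.5 did not overlap in either sex. Without both E10.5 replicate 1 arrays, a setting chosen after seeing the data, the log2 rise was 2.25 in female PGC (adjusted p = 0.00121) and 1.57 in male PGC (adjusted p = 0.0211). Across 5 scalings of the arrays, and relative to the median of all genes in each, the rise was 1.68 to 1.94 in female PGC and 0.95 to 1.90 in male PGC. The female call held in 5 of 5 and the male call in 3 of 5, being lost after normexp background correction (0.75; adjusted p = 0.383) and in the deposited value table (2.12; adjusted p = 0.243). The share of probes detected and the summed germ cell markers moved with stage. The markers summed to 2.08 to 2.62 at E13.5, against −1.85 to −0.07 at E10.5, with 2 of 2 markers detected on every array, and their part in the result was not tested.

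Dnmt1 at E10.5 rested on which array was read. It read −0.15 (male) and −0.27 (female) on the replicate 2 arrays, and −1.93 (male) and −1.70 (female) on the replicate 1 arrays. At E13.5 it read −0.70 and −0.72 in male and −0.27 and −0.12 in female PGC. The log2 difference from E10.5 was 0.33 ± 0.49 in male (adjusted p = 0.679; 95% interval −0.70 to 1.36) and 0.79 ± 0.49 in female PGC (adjusted p = 0.231; −0.24 to 1.82). Within scan day 1, where the arrays shared a slide, the differences were 1.23 in male and 1.43 in female PGC. Within scan day 2 they were −0.57 and 0.16, on different slides. With slide as a block on the PGC arrays alone, they were 1.1 (adjusted p = 0.0360) and 1.56 (adjusted p = 0.0149). Only 1 slide held both stages. The stage difference averaged over the sexes thus came in that fit from the replicate 1 arrays and is no check on both replicates. Without both E10.5 replicate 1 arrays the differences were −0.56 and 0.08. The direction in male PGC thus changed with the array used.

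Between the sexes at E10.5 neither gene passed the test, with male minus female differences of −0.05 ± 0.49 for Dnmt1 and −0.14 ± 0.39 for Uhrf1 (limma adjusted p = 1.00 for both; 95% intervals −1.08 to 0.98 and −0.97 to 0.68). There, 0.0133% of 7538 genes were called. At E13.5 the differences were −0.51 ± 0.49 (adjusted p = 0.540) and −0.36 ± 0.39 (adjusted p = 0.605), with 14.3% of 11569 genes called, and the intervals reached −1.54 for Dnmt1 and −1.18 for Uhrf1.

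**Figure D3:**
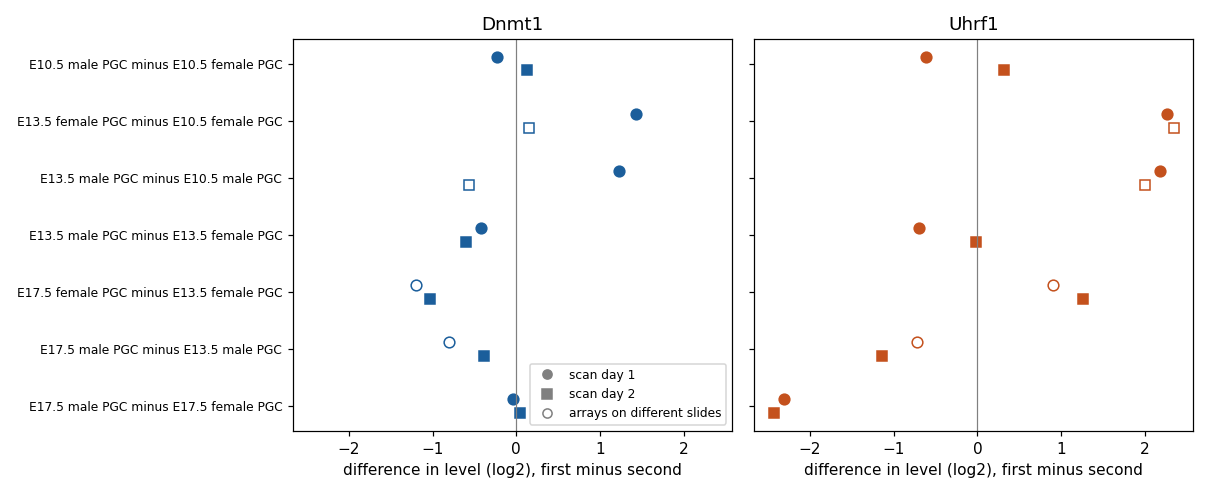
Differences in level (log2, first group minus second) for Dnmt1 (left) and Uhrf1 (right) in 7 PGC comparisons, taken within scan day 1 (circles) and within scan day 2 (squares). Open symbols compare arrays on different slides. Uhrf1 keeps its sign on both days for every stage comparison and for sex at E13.5 and E17.5, and turns sign for sex at E10.5. Dnmt1 turns sign between the days in E13.5 against E10.5 male PGC but not in the female PGC. It also turns sign for sex at E10.5 and E17.5.

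By E17.5 Uhrf1 differed between the sexes. It read −3.30 and −2.87 in E17.5 male PGC, against −0.98 and −0.44 in E17.5 female PGC, which did not overlap. Male PGC were lower by 5.17-fold (log2 −2.37 ± 0.39, SE; adjusted p = 1.23e-04; 95% interval 2.92 to 9.17 fold), in a comparison that called 51.6% of 13402 genes. Within scan day the difference was −2.31 on the first and −2.43 on the second, and relative to the median of all genes it was −2.73 to −2.19 over 5 scalings, called in each. The second Uhrf1 probe read −4.10 and −3.63 in male, against −2.04 and −1.45 in female PGC. Dnmt1 read −1.51 and −1.10 in E17.5 male PGC, against −1.47 and −1.15 in E17.5 female PGC, with overlapping arrays and a difference of 0.01 ± 0.49 (adjusted p = 0.993; 95% interval −1.02 to 1.03). The sign of that Dnmt1 difference turned under 4 of 4 other scalings (−0.73 to −0.0022).

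The Uhrf1 difference between the sexes passed the test at E17.5 and not at E13.5. In female PGC Uhrf1 rose 2.12-fold to −0.98 and −0.44, against −1.88 and −1.70 at E13.5 (log2 1.08 ± 0.39; adjusted p = 0.0405; 35.3% of 11996 genes called). That call was lost under each of 4 other scalings (0.59 to 1.07), by the second probe (adjusted p = 0.0987), with slide as a block (1.07; adjusted p = 0.0895) and in 3 of 4 fits that left out an array. In male PGC it read −3.30 and −2.87 at E17.5, against −2.58 and −1.72 at E13.5 (log2 −0.93 ± 0.39; adjusted p = 0.0628; 44% of 12988 genes called). Same-numbered PGC arrays shared a scan day, and with scan day as a block that difference passed (adjusted p = 0.0158), as it did with the replicate block (adjusted p = 0.0407), but not with slide as a block (−0.95; adjusted p = 0.0972). The interaction, the male change minus the female change, was −2.01 ± 0.55 (adjusted p = 0.0118; 29.3% of 13996 genes called). It was lost after normexp correction (−1.64; adjusted p = 0.0738), in the deposited table (−1.70; adjusted p = 0.421) and by the second probe (−1.72; adjusted p = 0.0547).

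Dnmt1 had lower means at E17.5 than at E13.5 in both sexes, without passing the test. The difference was −0.60 ± 0.49 in male PGC (adjusted p = 0.329), where arrays read −1.51 and −1.10 at E17.5, against −0.70 and −0.72 at E13.5. In female PGC it was −1.11 ± 0.49 (adjusted p = 0.0860), with −1.47 and −1.15 at E17.5, against −0.27 and −0.12 at E13.5. The arrays of the stages did not overlap in either sex. With scan day as a block the female difference passed (adjusted p = 0.0240), as it did with slide as a block (−0.97; adjusted p = 0.0325). Only 1 slide held both stages, so in the slide fit the stage difference averaged over the sexes came from the replicate 2 arrays. The interaction for Dnmt1 was 0.52 ± 0.69 (adjusted p = 0.608).

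Markers of other cells moved with stage as well. The globin gene Hba-a1, a marker of red blood cells, read 4.02 and 1.45 in E17.5 female PGC, against −1.28 and −6.23 in E13.5 female PGC. In male PGC it read 1.79 and −0.21 at E17.5, against −0.33 and −2.32 at E13.5. It was well above background on all 8 arrays, and the leukocyte gene Ptprc was on none. Summed pluripotency markers were −2.94 to −1.99 at E17.5 against 3.17 to 3.18 at E13.5 in female PGC, and 1.59 to 2.70 against 3.71 to 4.22 in male PGC. Sertoli and pregranulosa markers were −2.82 to −1.76 against −3.11 to −3.07 in female PGC, and 1.69 to 2.62 against −0.61 to 0.59 in male PGC. Their part in the changes of Uhrf1 and Dnmt1 was not tested.

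Marker lists moved with sex at E17.5. Sertoli and pregranulosa markers had a summed log2 level of 1.69 to 2.62 in male, against −2.82 to −1.76 in female PGC, with 5 of 6 and 2 of 6 well above background on both arrays. Foxl2 was not well above background in either sex, and the Sertoli marker Cst9 read 0.59 ± 0.87 in male and −8.53 ± 0.65 in female PGC, below background there. Summed pluripotency markers were 1.59 to 2.70 in male and −2.94 to −1.99 in female PGC (3 of 3 and 1 of 3 detected). Their part in the Uhrf1 difference was not tested. In bulk RNA, fewer cells of a type and less RNA per cell cannot be told apart.

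**Figure D4:**
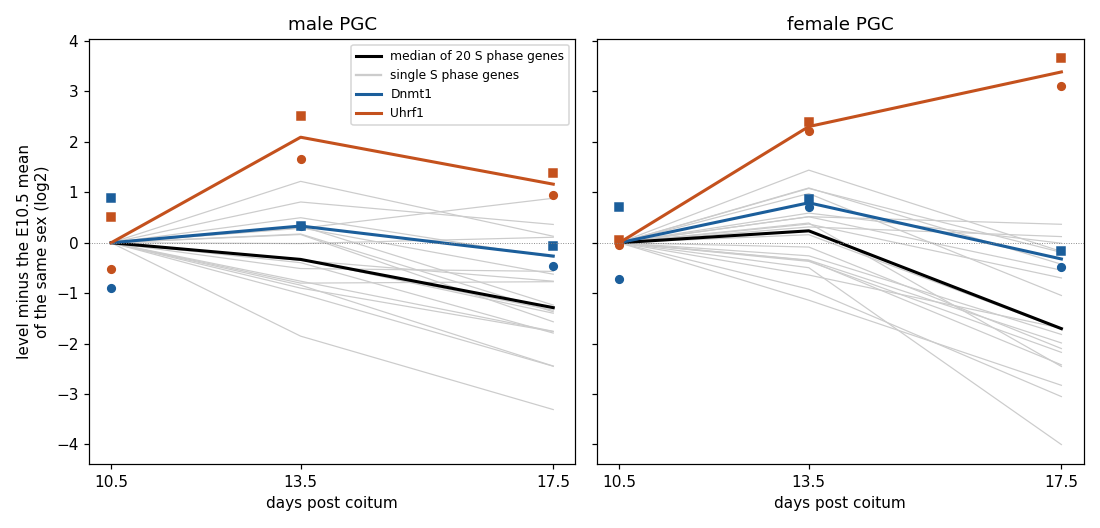
Change in level from the E10.5 mean of the same sex (log2) against days post coitum, in male (left) and female (right) PGC. Orange is Uhrf1 and blue Dnmt1 (lines are means, circles and squares replicates 1 and 2), grey lines are single S phase genes and black is the median of the 20 on the arrays. Uhrf1 ends above its E10.5 mean in both sexes and further above it in female PGC, and the S phase median ends below it.

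In later germ cells Dnmt1 passed the test in oogonia and Uhrf1 in spermatogonia, and in neither comparison with E17.5 PGC did both pass. Dnmt1 was lower in oogonia, with −2.94 and −2.90, against −1.47 and −1.15 in E17.5 female PGC, a 3.05-fold difference (log2 −1.61 ± 0.49; adjusted p = 0.0307; 19.4% of 14020 genes called). This call was lost under 3 of 4 other scalings (−1.32 to −0.81), and in 3 of 4 fits that left out an array. Uhrf1 in oogonia, −0.20 and −0.36, against −0.98 and −0.44 in E17.5 female PGC, did not pass (0.43 ± 0.39; adjusted p = 0.477). In spermatogonia Uhrf1 was higher, with −1.87 and −1.64, against −3.30 and −2.87 in E17.5 male PGC, or 2.51-fold (log2 1.33 ± 0.39; adjusted p = 0.0310; 15.6% of 13759 genes called). The call did not hold after normexp correction, in the deposited table, without the filter on dim probes, by the second probe or in 3 of 4 fits that left out an array. Dnmt1 in spermatogonia read −2.79 and −2.30, against −1.51 and −1.10 in E17.5 male PGC (−1.24 ± 0.49; adjusted p = 0.0933). Sertoli and pregranulosa markers summed to −0.08 to 0.12 in spermatogonia, against 1.69 to 2.62 in E17.5 male PGC (5 of 6 detected in each), and germ cell markers to 2.48 to 2.64 against 1.38 to 2.08. Of the Sertoli and pregranulosa markers, Fst went the other way, at −1.25 in spermatogonia against −2.65 in E17.5 male PGC. In oogonia the somatic markers summed to −2.78 to −2.75, against −2.82 to −1.76 in E17.5 female PGC (5 of 6 and 2 of 6 detected), and germ cell markers to 2.69 to 2.73 against 1.97 to 2.28. Their part in the results was not tested.

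Spermatogonia had less Uhrf1 signal than oogonia. The difference was 2.78-fold (log2 −1.47 ± 0.39; adjusted p = 0.00509), with 49.1% of 15456 genes called. The arrays did not overlap, and relative to the median of all genes the difference was −2.19 to −1.40 over 5 scalings, called in each. Dnmt1 differed by 0.37 ± 0.49 between spermatogonia and oogonia (adjusted p = 0.550), and that sign turned under 2 of 4 other scalings (−0.84 and −0.25). Sertoli and pregranulosa markers summed to −0.08 to 0.12 in spermatogonia and −2.78 to −2.75 in oogonia (5 of 6 detected in each), and their part in the result was not tested.

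In EG cultures, Dnmt1 was lower and Uhrf1 higher than in E13.5 PGC, the nearest PGC stage measured after that of their source field. Dnmt1 read −2.24 and −2.55 in EG male and −2.01 and −1.93 in EG female arrays, against −0.70 and −0.72 in E13.5 male and −0.27 and −0.12 in E13.5 female PGC. Averaged over the sexes, this was 3.32-fold lower (log2 −1.73 ± 0.34, SE; adjusted p = 6.81e-04; 42.1% of 18190 genes called). It stayed negative over 5 scalings, at −1.97 to −0.33 relative to the median of all genes, and was called in 4. The deposited table gave −1.08 (adjusted p = 0.226). Uhrf1 read −1.17 and −1.24 in EG male and −0.74 and −0.75 in EG female arrays, against −2.58 and −1.72 in E13.5 male and −1.88 and −1.70 in E13.5 female PGC. It was 2.00-fold higher in EG (log2 1.00 ± 0.28; adjusted p = 0.00796), called under 5 of 5 scalings at 0.73 to 2.24 relative to the median of all genes. No EG array overlapped E13.5 PGC for either gene. Summed germ cell markers were −4.64 to −2.89 in EG, against 2.08 to 2.62 in E13.5 PGC (2 of 2 detected in each). Fibroblast and feeder markers summed to −4.89 to 0.27 in EG, with 4 of 4 detected in male and 1 of 4 in female arrays, against −2.43 to −1.86 in E13.5 PGC (2 of 4). Their part in the result was not tested.

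Against ES, EG arrays had lower means of both genes, and neither passed. Dnmt1 differed by −0.76 ± 0.34 (adjusted p = 0.208) and Uhrf1 by −0.91 ± 0.28 (adjusted p = 0.0607), with 6.34% of 19100 genes called. For Uhrf1 no EG array reached the lowest ES array, at −0.24, and the difference was −1.01 to −0.91 relative to the median of all genes over 5 scalings, called in 1.

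GS cultures had more Dnmt1 signal than adult testis. The GS arrays read −2.14 and −1.27, against −4.24 and −4.18 in testis, or 5.70-fold (log2 2.51 ± 0.49; adjusted p = 4.49e-04; 46.6% of 24183 genes called). The groups did not overlap, the call held under 5 of 5 scalings (2.34 to 2.78 relative to the median of all genes), and leaving out an array gave 2.08 to 2.94. Uhrf1 read −2.17 and −0.95 in GS, against −2.08 and −2.11 in testis, and did not pass (0.53 ± 0.39; adjusted p = 0.286). That value rested on GS replicate 2, being −0.07 without it and 1.14 without replicate 1 (adjusted p = 0.0365). Spermatid markers summed to −6.28 to −4.28 in GS, against 4.69 to 4.76 in testis (2 of 3 and 3 of 3 detected). Fibroblast markers summed to 0.95 to 3.67 in GS, against −2.39 to −1.24 in testis (4 of 4 and 3 of 4), and Sertoli and pregranulosa markers to −2.12 to 0.81 against 2.85 to 2.87 (4 of 6 in each, Foxl2 in neither). Within the last list Sox9, Clu and Cst9 were lower in GS, but Fst (−1.05 against −6.88) and Wnt4 (−7.15 against −9.70) were higher. The part of these cells in the result was not tested. Between GS and spermatogonia neither gene passed, at 0.84 ± 0.49 for Dnmt1 (adjusted p = 0.229) and 0.20 ± 0.39 for Uhrf1 (adjusted p = 0.774), with 25.4% of 21233 genes called.

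**Figure D5:**
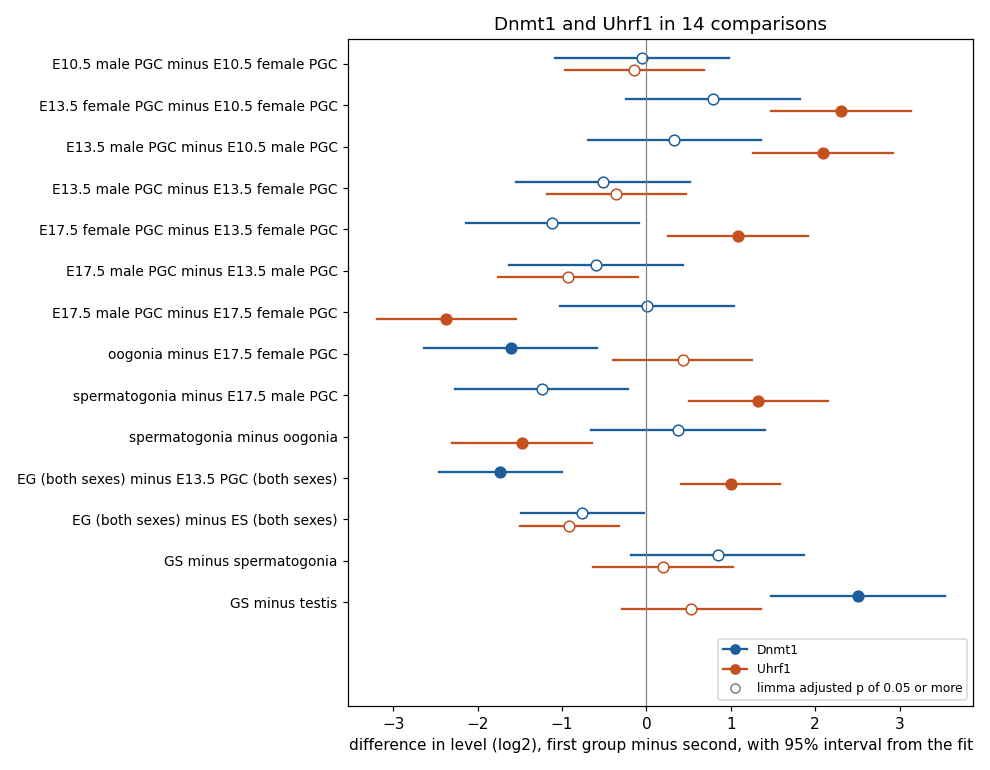
Difference in level (log2, first group minus second) of Dnmt1 (blue) and Uhrf1 (orange) in 14 comparisons, with the 95% interval of the fit. Filled symbols passed a limma adjusted p of 0.05. Uhrf1 passes in PGC at E13.5 against E10.5 in both sexes, at E17.5 between the sexes and at E17.5 against E13.5 in female PGC. It also passes in spermatogonia against E17.5 male PGC and against oogonia, and in EG against E13.5 PGC. Dnmt1 passes in oogonia against E17.5 female PGC, EG against E13.5 PGC and GS against testis.

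Partners and regulators of maintenance methylation were followed through 17 genes, of which 9 were matched to a probe through its accession. Uhrf2, Pcna, Usp7, Hells, Pclaf, Ehmt2, Kdm1a and Zfp57 were not among them. Between E17.5 and E13.5 in female PGC, 1 of the 9 rose and 4 fell, against 19.2% and 16.1% of all genes tested, and the list median was −0.78, against 0.10 for all genes. Over 5 scalings 0 to 5 of the 9 fell, and the list median was −1.28 to 0.02. The largest falls were in Lig1, the ligase that joins Okazaki fragments and a recruiter of UHRF1 when methylated (−1.43 ± 0.27; adjusted p = 6.39e-04), Trim28, a corepressor that protects imprints (−1.26; adjusted p = 0.00370), and Cdca7, a partner of the remodeller HELLS (−0.89; adjusted p = 0.0403). In male PGC none of the 9 rose by the limma test (2 did at an unadjusted p under 0.05) and 3 fell, against 30% and 14% of all genes, with a median of −0.28 against 0.47, and 1 to 4 fell over 5 scalings. The genes that fell were Dppa3, Trim28 (−1.37; adjusted p = 0.00162) and the deacetylase gene Hdac1 (−1.01; adjusted p = 0.00300).

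Dppa3 (Stella or PGC7), a maternal factor known in mouse oocytes to keep UHRF1 off chromatin, had the widest range of the list. It read −2.68 and −3.01 in E17.5 male PGC, against 2.18 and 2.62 in E13.5 male PGC (log2 −5.24 ± 0.35; adjusted p = 1.04e-07), and against 1.41 and 0.16 in E17.5 female PGC (−3.63 ± 0.35; adjusted p = 8.34e-07). E17.5 male PGC were thus lower in both Uhrf1 and Dppa3 than E17.5 female PGC. Kat5 (−0.86) and Hdac1 (−0.65) were also lower there, and Cdca7 (1.17) and Lig1 (0.81) higher, so 2 of the 9 were higher and 3 lower, against 30.7% and 20.9% of all genes. Over 5 scalings 0 to 2 were higher and 1 to 4 lower. The sex by stage interaction passed for Dppa3 (−5.21 ± 0.50; adjusted p = 2.49e-06) and Lig1 (1.60 ± 0.38; adjusted p = 0.00459), and for 17.9% of all genes in the positive and 11.4% in the negative direction. Dppa3 was higher in oogonia than in E17.5 female PGC (2.48 ± 0.35; adjusted p = 5.74e-04), and lower in spermatogonia than in oogonia, at −4.44 and −4.57 against 3.32 and 3.22 (−7.77 ± 0.35; adjusted p = 3.56e-10). In GS it was at least 59.4-fold higher than in testis, where it was not well above background on either array, with −10.1 as the bound there (limma adjusted p = 2.5e-09).

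Elsewhere the partners moved in both directions. Against E10.5, Dmap1 and Lig1 rose and Cdca7 and Hdac1 fell in E13.5 female PGC, where 20.5% of all genes rose and 8.95% fell. Over 5 scalings 0 to 2 rose and 0 to 2 fell, and 1 rose and 1 fell without both E10.5 replicate 1 arrays. Hdac1 was the 1 gene called in E13.5 male PGC, where 12.4% rose and 6.71% fell (0 to 1 fell over 5 scalings). Dppa3 was the 1 gene called between the sexes at E13.5, higher in male PGC (1.57 ± 0.35; adjusted p = 0.00708), where 5.46% of all genes were higher and 8.79% lower. None was called between the sexes at E10.5 by limma, and 0 passed there at an unadjusted p under 0.05. In oogonia against E17.5 female PGC 1 was higher and 2 lower, Trim28 (−1.95) and Kat5 (−1.14), with 6.08% and 13.3% of all genes. Over 5 scalings 1 to 3 were higher and 0 to 2 lower. In spermatogonia against E17.5 male PGC 3 were lower, Dppa3 (−1.66), Lig1 (−1.25) and Trim28 (−1.16), with 6.61% of all genes higher and 8.99% lower (0 to 3 lower over 5 scalings). In spermatogonia against oogonia 2 were higher and 3 lower, Hdac2 (−1.34) and Dmap1 (−0.88) after Dppa3, with 32.1% and 17.1% of all genes (0 to 2 higher and 3 to 4 lower over 5 scalings). In EG against E13.5 PGC 1 was higher and 4 lower, led by Dppa3 (−3.0), Hdac2 (−1.31) and Dmap1 (−1.17), with 18.4% and 23.7% of all genes (0 to 1 higher and 1 to 5 lower over 5 scalings). None was called by limma between EG and ES, where 4.35% of all genes were higher and 1.99% lower (at an unadjusted p under 0.05, 1 of the 9 was higher and 2 lower). In GS 2 of 9 were higher than in spermatogonia, Kat5 (1.57) and Setd7 (1.51), and 1 was lower, with 12.6% and 12.8% of all genes (0 to 2 higher and 0 to 1 lower over 5 scalings). Against testis 5 were higher, among them Cdca7 (4.42) and Setd7 (3.25), and 4 lower, with 21.3% and 25.3% of all genes. The 5 higher held as a count over 5 scalings, where 0 to 4 were lower, and without GS replicate 1, where 1 was lower.

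S phase genes, of which 20 of 26 were matched, set a second scale, since maintenance methylation follows replication. In E17.5 against E13.5 female PGC none of the 20 was higher and 16 were lower, against 16.1% of all genes lower (6.29% to 18% over 5 scalings), with a median of −1.63 against 0.10. The largest falls were in Mcm7 of the replicative helicase (−3.51 ± 0.27; adjusted p = 1.78e-07), the topoisomerase gene Top2a (−2.84 ± 0.62; adjusted p = 0.00231) and the thymidylate synthase gene Tyms (−2.13 ± 0.33; adjusted p = 1.27e-04). Uhrf1, at 1.08, had the opposite sign, and Dnmt1, at −1.11, the same sign as the list. In male PGC 12 of 20 were lower and none higher, against 14% and 30% of all genes. The median was −0.998 against 0.47, and the falls were led by Mcm2 (−1.73), Tyms (−1.60) and Fen1 (−1.54). The counts of lower genes over 5 scalings were 5 to 16 in female and 0 to 15 in male PGC, lowest in the deposited table. For the interaction 5 of 20 were positive and none negative (Mcm7 2.44, Pole 1.86 and Cdt1 1.67 the largest), against 17.9% and 11.4% of all genes, where Uhrf1 was at −2.01. The positive count was 0 to 5 over 5 scalings, lowest in the deposited table. Between the sexes at E17.5, 4 were higher in male PGC, led by Mcm7 (2.59), Pole (1.26) and Rrm1 (1.15), and 2 lower, shares below the 30.7% and 20.9% of all genes. Over 5 scalings 0 to 4 were higher and 0 to 3 lower.

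At E13.5 against E10.5, where Uhrf1 rose, 2 of the 20 S phase genes rose and 2 fell in female PGC (Rpa2 1.44, Pole 1.08, Rrm2 −1.14 and Tyms −0.92), against 20.5% and 8.95% of all genes. In male PGC 1 rose and 4 fell, led by Rrm2 (−1.85), Ccna2 (−1.01) and Cdc45 (−0.90), against 12.4% and 6.71%. Medians were 0.24 against 0.36 for all genes in female and −0.33 against 0.19 in male PGC. Without both E10.5 replicate 1 arrays 2 rose and 1 fell in female PGC (median −0.27 against 0.17) and 0 rose and 2 fell in male PGC (−0.51 against −0.0016). Over 5 scalings the counts were 0 to 2 up and 0 to 2 down in female, and 0 to 1 up and 0 to 5 down in male PGC. In oogonia 1 was higher than in E17.5 female PGC and 2 lower (Top2a −2.07 and E2f1 −1.08), against 6.08% and 13.3% of all genes, with 0 to 2 higher and 0 to 4 lower over 5 scalings. In spermatogonia 5 were lower than in E17.5 male PGC, led by Top2a (−3.33), Ccna2 (−1.14) and Pole (−1.11), against 8.99% of all genes, while Uhrf1 was higher. That count was 0 to 5 over 5 scalings. Against oogonia 4 were higher and 6 lower in spermatogonia, led by Ccna2 (−1.82), Tyms (−1.18) and Mcm5 (−1.0), against 32.1% and 17.1% of all genes (0 to 4 higher and 3 to 9 lower over 5 scalings). In EG against E13.5 PGC 5 were higher, led by Rrm2 (1.78), and 5 lower, led by Pole (−1.43), E2f1 (−1.38) and Rpa2 (−1.32), against 18.4% and 23.7% of all genes (3 to 6 higher and 0 to 6 lower over 5 scalings). By limma none was called between EG and ES, where 4.35% of all genes were higher and 1.99% lower, and 0 passed at an unadjusted p under 0.05. Of the 20, 1 was lower and none higher in male than in female PGC at E13.5, against 8.79% and 5.46% of all genes (0 to 1 lower over 5 scalings).

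In GS, 16 of the 20 were higher than in testis and none lower, against 21.3% of all genes higher, with a median of 2.24 against −0.06. Cdt1, the replication licensing factor (4.04 ± 0.24), Mcm2 (3.78 ± 0.47) and the transcription factor gene E2f1 (3.75 ± 0.35) led, and Dnmt1 was at 2.51. Leaving out a GS array gave 12 without replicate 2 and 17 without replicate 1. Against spermatogonia 10 were higher in GS and none lower, against 12.6% and 12.8% of all genes, with a median of 1.36 against 0.06, led by Top2a (3.97), Mcm2 (2.07) and Ccna2 (1.93). The count was 14 without GS replicate 1, 7 without replicate 2, and 1 to 10 over 5 scalings, lowest in the deposited table. Against testis it was 13 to 17 over 5 scalings.

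Over the 14 group means, and among the 3911 other genes well above background on all 28 arrays, the genes most like Dnmt1 were Mbtps1 (r = 0.944), E2f1 (0.944), Atad3a (0.938), Tcf3 (0.935) and Cactin (0.915). Those most like Uhrf1 were Eipr1 (0.876), Vapa (0.842), Triap1 (0.831), Ap2m1 (0.830) and Slc20a1 (0.821). The 19 S phase genes detected throughout had a median r of 0.65 with Dnmt1, against 0.14 for all genes, and of −0.07 with Uhrf1, against −0.05 for all genes. These correlations describe 14 points that share scaling, dye and amplification, and have no test.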

How the data were processed

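Per the labels' protocols, 50 ng of RNA was amplified linearly and labelled. Agilent Feature Extraction 10.5.1.1 read the spots, per the file headers and the submitters' processing notes. Its deposited processed signal is a linear intensity after background adjustment. A deposited table also holds log2 values, and no source used here gives how they were made. Its columns equalled log2 processed signal minus the array median to within 0.00252, with column medians of 0.00178 to 0.0372, so scale, centring and direction were found from the values.

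Control spots (1417) and 514 non-uniform probes were removed. Each array was scaled to its 75th percentile over the 7227 probes well above background on all 28 arrays. A gene was represented by its probe of highest mean. In the filter, the lists and the markers, a gene counted as well above background on an array where any of its probes was. Probe symbols came through accessions from RefSeq. A 14-group fit was made in limma 3.58.1 (R 4.3.3, data.table version 1.17.8) with lmFit and eBayes, on genes well above background on both arrays of a compared group, with Benjamini-Hochberg adjustment over all genes tested and a threshold of 0.05. The scripts were tested on simulated data. With 2 arrays a group, precision is limited by their number.

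Alternatives were the percentile over all probes, quantile normalization, normexp with an offset of 50 (on median signals, since the files have no mean signal), the deposited table, no filter, scan day, slide or replicate number as a block, other probes and leaving out each array. Same-numbered PGC arrays deviated together (r of 0.30 to 0.80 in 15 pairs), as did no other set of groups (−0.18 to 0.26 in 76 pairs). The members and gene lists were chosen with earlier results of these data known. For each list the text names the 3 called genes with the largest change in the main direction, and Dppa3; a few genes named beside them were chosen after their values were seen. The summed level of blood markers is not reported here.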

Additional observations from a re-analysis of the deposited data

Results flagged for a closer look

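The sex by stage interaction of Uhrf1 between E13.5 and E17.5, the change in male PGC minus the change in female PGC, was −2.01 on the log2 scale, and was singled out because the effect of stage differed between the sexes by a test of the difference itself (limma adjusted p = 0.0118). The call held under 3 of 5 scalings and was lost by the second Uhrf1 probe. Groups of 2 arrays were too small to test for outlying arrays.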

How the results depend on the processing

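All values are log2 differences. Calls of Uhrf1 in E13.5 female against E10.5 female PGC, E17.5 male against E17.5 female PGC, spermatogonia against oogonia and EG against E13.5 PGC, and of Dnmt1 in GS against testis, held in every fit run. With the percentile over all probes, Dnmt1 passed in E17.5 against E13.5 female PGC (−1.28), lost its call in oogonia (−1.07) and turned sign between the sexes at E17.5 (−0.31) and between spermatogonia and oogonia (−0.25). Uhrf1 lost its call in E17.5 against E13.5 female PGC (0.92) and passed in the male PGC (−1.42), in EG against ES (−0.96) and in GS against testis (0.95). Quantile normalization did the same for Dnmt1 in female PGC (−1.28), in oogonia (−1.32) and at E17.5 between the sexes (−0.011), and for Uhrf1 in female (1.07) and male PGC (−1.40). After normexp correction the differences between the sexes turned for Dnmt1 at E10.5 (0.046) and E17.5 (−0.0022) and for Uhrf1 at E10.5 (0.32), and Uhrf1 lost its call in E13.5 against E10.5 male PGC (0.75), E17.5 against E13.5 female PGC (0.98), the interaction (−1.64) and spermatogonia against E17.5 male PGC (0.91). In the deposited table Uhrf1 lost the same 4 calls (2.12, 0.59, −1.70 and 1.65), and Dnmt1 lost those in oogonia (−0.81) and EG against E13.5 PGC (−1.08) and turned sign at E17.5 (−0.73) and between spermatogonia and oogonia (−0.84). Without the filter on dim probes, where more genes are tested, calls were lost for Uhrf1 in E17.5 against E13.5 female PGC (1.08) and spermatogonia (1.33) and for Dnmt1 in oogonia (−1.61). The probe M08A00925 turned Dnmt1 between the sexes at E10.5 (0.084), and M08A02535 passed in spermatogonia against E17.5 male PGC (−3.31). With A_51_P491742, Uhrf1 lost E17.5 against E13.5 female PGC (1.00), the interaction (−1.72) and spermatogonia (0.68), and turned in oogonia (−0.26). The cause of these changes was not tested.

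With scan day as a block, Dnmt1 passed in E17.5 against E13.5 female PGC (−1.11) and Uhrf1 in E17.5 against E13.5 male PGC (−0.93). With slide as a block on PGC arrays alone, Dnmt1 passed in E13.5 against E10.5 female (1.56) and male PGC (1.1) and in E17.5 against E13.5 female PGC (−0.97), where Uhrf1 lost its call (1.07). In that fit each stage difference averaged over the sexes came from 1 slide, and only the part that differed between the sexes used other slides. The slide with both stages held the replicate 1 arrays for E13.5 against E10.5 and the replicate 2 arrays for E17.5 against E13.5. With the replicate block, Uhrf1 passed in E17.5 against E13.5 male PGC (−0.93; adjusted p = 0.0407) and in EG against ES (−0.91; adjusted p = 0.0373), and no other call of either gene changed. Without both E10.5 replicate 1 arrays, chosen after seeing the data, signs turned between the sexes at E10.5 for Dnmt1 (0.13) and Uhrf1 (0.32) and for Dnmt1 in E13.5 against E10.5 male PGC (−0.56).

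Leaving out 1 array at a time changed a sign or a call in these ranges. For Dnmt1 they were −0.94 to 0.84 between the sexes at E10.5 and −0.20 to 0.21 at E17.5, 0.078 to 1.51 in E13.5 against E10.5 female PGC and −0.56 to 1.22 in the male PGC, and −1.77 to −1.45 in oogonia against E17.5 female PGC. For Uhrf1 they were −0.66 to 0.37 between the sexes at E10.5 and −0.79 to 0.073 at E13.5, 0.81 to 1.36 in E17.5 against E13.5 female PGC and −1.36 to −0.50 in the male PGC, −2.44 to −1.59 for the interaction, 1.11 to 1.54 in spermatogonia against E17.5 male PGC, −0.41 to 0.80 in GS against spermatogonia and −0.074 to 1.14 in GS against testis. A group left with 1 array was assumed to vary like the others.

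The number of genes called over 5 scalings ran from 921 to 3356 in E13.5 against E10.5 female PGC and from 202 to 1733 in the male PGC, from 1414 to 4235 and from 2119 to 5886 in E17.5 against E13.5 female and male PGC, from 3111 to 6920 between the sexes at E17.5, from 5276 to 14093 in EG against E13.5 PGC, from 326 to 1649 between the sexes at E13.5, from 1155 to 4697 for the interaction, from 256 to 2713 in oogonia and from 182 to 2344 in spermatogonia against E17.5 PGC, from 331 to 1211 in EG against ES and from 2809 to 13629 in GS against spermatogonia. The share of these calls that was higher moved by over 10 percentage points between scalings, as from 35.6% to 93.5% in E13.5 against E10.5 female PGC (69.5% as reported). Replicate 1 of E10.5 male and female PGC had the fewest probes well above background, which limits what can be tested there.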
